A study of Mus musculus with 6 samples.

Results

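Kruppel-like factors are zinc finger transcription factors, and 10 of their genes (Klf2, Klf3, Klf4, Klf5, Klf6, Klf7, Klf9, Klf10, Klf11 and Klf13) were followed in the mouse colon carcinoma line CT26.WT. The members were chosen by gene symbol among the 25407 gene rows of the deposited table, and each symbol stood on 1 row. The comparison was of 3 libraries from treated cells against 3 libraries from control cells. Treated cells had received the nanoparticle Cu₂O@AuMn@HA, which by its name holds copper(I) oxide, gold and manganese, as well as NaHS, which donates hydrogen sulfide, and NIR (near-infrared light). Control cells are given in the labels only as the control group. The sources used here do not give what control cells received instead, nor the doses or the time to harvest. No label ties the libraries of a group to separate cultures, and p-values therefore cover only how these libraries vary, which could be technical variation alone.

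Factors of this family bind GC-rich and CACCC elements through C2H2 zinc fingers at the C-terminal end, and differ in the regions that recruit partner proteins. Klf2, Klf4, Klf5, Klf6 and Klf7 belong to a subgroup that mostly activates genes through acetyltransferases, Klf3 recruits the co-repressor CtBP, and Klf9, Klf10, Klf11 and Klf13 recruit the co-repressor Sin3. Many of these genes respond early to growth factors, stress or hormones. In the gut epithelium Klf5 is known from dividing crypt cells and Klf4 from cells that have stopped dividing.

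Of the 10 factors, 8 rose and 1, Klf13, fell in treated cells, while Klf2 did not pass (edgeR's quasi-likelihood test, Benjamini-Hochberg adjusted p under 0.05). Klf6 rose most, 2.98-fold. The other factors that rose did so 1.29-fold to 1.70-fold. Of all 16212 rows tested, 46.6% changed, 23.0% rising and 23.5% falling. All 10 members had a mean FPKM of at least 1. Of the 10340 tested rows with such a mean, 59.1% changed and 25.7% rose. All 10 members passed the filter on low counts, and their median log2 fold change was 0.63, against 0.06 over all tested rows. With 1 library left out, the count depended on which library it was. Without control 1, 8 factors rose (21.2% of all rows tested), and without treated 3, 7 rose (21.1% of all rows). Without treated 1, 4 factors rose (16.9% of all rows tested), and without treated 2, 5 rose (17.8% of all rows). Without control 3, 5 rose (18.6% of all rows), and without control 2, 6 rose (19.7% of all rows). In limma on log2(FPKM + 1) over every row above 0, 4 rose, as did 14.3% of all rows. Klf3, Klf5, Klf6 and Klf10 rose and Klf13 fell with any single library left out.

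The libraries held 62328377 to 70323604 estimated counts in treated cells and 71409968 to 81821380 in control cells. A fragment seems to have weighed about 4 estimated counts, which was inferred from an excess of the value 4 and is stated in no label. The members held 350 to 10030 estimated counts per library, or 87.5 to 2508 after division by 4. With all counts divided by 4, fewer rows passed the filter on low counts (13546), and 28.3% of them rose and 28.0% fell. Ribosomal RNA took 0.255% ± 0.00472 of estimated counts in treated libraries and 3.79% ± 0.159 in control libraries (SD, n = 3 each), and mitochondrial genes took 2.54% ± 0.794 in treated and 1.51% ± 0.315 in control libraries. Their part in the results was not tested. Across 15760 genes, which are not independent replicates, the log2 fold change fell with the GC content of the longest transcript (Spearman -0.268). With an offset for GC content in the fit, 8 factors again rose and 1 fell, against 25.7% and 23.5% of all rows. The epithelial keratin Krt18 stood at 163 ± 9.97 FPKM in treated cells and 65.4 ± 5.94 FPKM in control cells (SD, n = 3 each), and Krt8 rose with it, while Krt20 fell, with 57.5 ± 4.22 FPKM in treated cells and 90.3 ± 3.00 FPKM in control cells. Krt19 rose at low levels, with 0.694 ± 0.0296 FPKM in treated and 0.135 ± 0.0179 FPKM in control libraries. The epithelial markers Epcam and Cdh1 were at most 0.0609 FPKM in any library. Cdx2 was at most 0.459 FPKM and Vil1 at most 0.135 FPKM, and neither was called. The 4 endothelial markers together summed to 0.0325 to 0.0555 FPKM in treated and 0.0285 to 0.0680 FPKM in control libraries. The 4 leukocyte markers with a row summed to 54.8 to 64.3 FPKM in treated and 27.4 to 28.2 FPKM in control libraries, nearly all of it from the lysosomal gene Cd68, and the pan-leukocyte gene Ptprc was at most 0.00292 FPKM. The 4 fibroblast markers summed to 16.3 to 18.0 FPKM in treated and 31.8 to 33.6 FPKM in control libraries, mostly from the collagen gene Col1a1. Col1a1 and Acta2 fell and Pdgfra was not called. Dcn rose at low levels, with 0.925 ± 0.106 FPKM in treated and 0.191 ± 0.0260 FPKM in control libraries. The part of these markers in the results was not tested.

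Promoter sequences are shown for the factor that rose most, the factor that did not pass and the factor that fell. They come from RefSeq on build GRCm38.p6, which held windows of 250 bases before to 50 bases after the transcription start for 8 of the 10 members. Klf5 and Klf10 were not among them. Capitals mark matches, on either strand, to the GC box GGGCGG, the CCAAT box, the core ACGTG of hypoxia and E-box elements, and the site of MEF2 factors (CTA and TAG with 4 bases between them), and overlapping matches run together. The Klf6 window lies on the plus strand at chr13:5861239-5861538, the Klf2 window on the plus strand at chr8:72318812-72319111 and the Klf13 window on the minus strand at chr7:63938866-63939165.
Klf6: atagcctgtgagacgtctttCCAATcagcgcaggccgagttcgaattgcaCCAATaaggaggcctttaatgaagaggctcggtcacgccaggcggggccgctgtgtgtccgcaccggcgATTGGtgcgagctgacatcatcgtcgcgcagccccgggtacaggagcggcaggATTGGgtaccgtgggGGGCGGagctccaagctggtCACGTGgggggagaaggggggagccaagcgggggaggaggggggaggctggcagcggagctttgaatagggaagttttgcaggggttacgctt
Klf2: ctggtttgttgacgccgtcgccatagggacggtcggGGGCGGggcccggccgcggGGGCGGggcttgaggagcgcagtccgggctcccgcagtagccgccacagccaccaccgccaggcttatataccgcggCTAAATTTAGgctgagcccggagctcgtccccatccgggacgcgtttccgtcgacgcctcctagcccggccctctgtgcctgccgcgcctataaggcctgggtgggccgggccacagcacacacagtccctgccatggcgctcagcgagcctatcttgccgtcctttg
Klf13: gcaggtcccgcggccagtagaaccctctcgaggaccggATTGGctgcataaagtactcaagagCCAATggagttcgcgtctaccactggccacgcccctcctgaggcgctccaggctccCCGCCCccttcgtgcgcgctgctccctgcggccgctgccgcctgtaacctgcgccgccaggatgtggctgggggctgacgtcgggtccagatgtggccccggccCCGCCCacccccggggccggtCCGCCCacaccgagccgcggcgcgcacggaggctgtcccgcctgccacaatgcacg

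The GC box was present in 7 of the 8 windows, all but that of Klf9, and in 35.7% of the 32851 windows in the RefSeq table. CCAAT was found in 4 windows (Klf6, Klf9, Klf11 and Klf13) and in 37.4% of all windows, and ACGTG in 4 (Klf4, Klf6, Klf9 and Klf11) and in 19.6% of all windows. CACCC, a letter run that the family itself binds, was found in 5 windows (Klf2, Klf3, Klf7, Klf9 and Klf13) and in 57.5% of all windows. The heat shock element core GAANNTTC and the cyclic AMP element TGACGTCA were in none of the 8 windows, against 7.86% and 1.79% of all windows. The exact TATA box letters TATAAA and the CArG box of serum response factor were also in none, against 13.6% and 1.63% of all windows. Variants of the TATA box, such as TATAAG in the printed Klf2 window, were not searched for. The AP-1 type pattern TGANTCA, where N is any base, matched the Klf9 window alone, as TGAATCA, and 7.81% of all windows. The MEF2 type pattern, with any 4 bases in its centre, was searched for after the sequences were seen. It matched the Klf2 window alone and 3.69% of all windows. Matches to either pattern need not be sites of these factors. No window other than that of Klf6 held more than 3 matches to CCAAT, and that of Klf6 held 4. GC content was 63.0% in the Klf6 window, 69.3% in that of Klf2 and 72.0% in that of Klf13, against a median of 52.7% over all windows. A match describes the letters only, since the deposited data hold no measurement of binding.

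Of the 5 factors of the activator subgroup, 4 rose and 0 fell, against 23.0% and 23.5% of all tested rows. Klf6 (ENSMUSG00000000078), a widely expressed factor that is induced by injury and restrains growth in several tissues, lies on chromosome 13, plus strand, at 5911481 to 5920393 in the deposited coordinates, whose build is not given. Klf6 had 27.96, 29.99 and 25.97 FPKM in treated libraries, against 10.3, 7.98 and 9.19 FPKM in control libraries. Every treated library stood more than 2-fold above every control library. The log2 fold change was 1.57 ± 0.09 (SE), with a 95% interval of 1.37 to 1.78 and an edgeR adjusted p of 2.1e-06. Of 16212 rows, 1009 had a larger log2 fold change, and 9.87% rose at least 2-fold. Klf6 was the only factor of the 10 to do so. Its longest transcript had the lowest GC content of the 10 members (42.4%), and with the GC offset its log2 fold change was 1.22. Its promoter, printed above, held 4 CCAAT matches, 1 GC box and an ACGTG core that reads the same on both strands as CACGTG.

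Klf5 (chromosome 14), which drives division of intestinal crypt cells, had 8.43, 7.47 and 6.99 FPKM in treated libraries, against 5.16, 3.96 and 3.99 FPKM in control libraries. The groups did not overlap, and Klf5 rose by a log2 fold change of 0.77 ± 0.11 (SE; edgeR adjusted p = 0.000429). Klf4 (chromosome 4), the counterpart of Klf5 in cells that leave the cell cycle and a factor of induced pluripotency, had 26.6, 23.1 and 22.3 FPKM in treated libraries, against 20.9, 17.2 and 16.2 FPKM in control libraries. The lowest treated library was only slightly above the highest control library. Klf4 rose by a log2 fold change of 0.37 ± 0.10 (SE; edgeR adjusted p = 0.0130). The call was lost without treated 1 (0.29, adjusted p = 0.0787) and without control 3 (0.27, adjusted p = 0.0890). In limma on log2(FPKM + 1) over every row above 0 it stood at the threshold (adjusted p = 0.0502), and with the GC offset it was larger, at 0.58. Within a library, the FPKM of Klf5 over that of Klf4 was 0.313 to 0.324 in treated and 0.230 to 0.248 in control libraries, and Klf5 was the lower of the pair in every library.

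Klf7 (chromosome 1), best known from neurons and fat cells, had 2.05, 1.99 and 1.74 FPKM in treated libraries, against 1.43, 0.779 and 1.27 FPKM in control libraries. Control 2 was well below the other two control libraries, and the groups did not overlap. Klf7 rose by a log2 fold change of 0.70 ± 0.19 (SE; edgeR adjusted p = 0.0142). The call was lost without treated 1 (0.65, adjusted p = 0.0598) and narrowly without treated 2 (0.66, adjusted p = 0.0501). In limma on log2(FPKM + 1), a scale that shrinks low values, it was 0.45, with adjusted p = 0.0170 at a mean FPKM of at least 1 and 0.0665 over every row above 0.

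Klf2 (chromosome 8), which keeps T cells quiescent and is raised by blood flow in endothelium, had 28.6, 27.1 and 27.96 FPKM in treated libraries, against 26.3, 34.3 and 31.7 FPKM in control libraries. The groups overlapped, since control 1 was below all 3 treated libraries. The log2 fold change was -0.18 ± 0.11 (SE; edgeR adjusted p = 0.212), and its 95% interval of -0.43 to 0.07 contains a fall to 0.742-fold and a rise to 1.05-fold. Without control 1 Klf2 was called lower (-0.31, adjusted p = 0.0224), as were 21.8% of all rows. Klf2 had the GC-richest transcript of the 10 members (61.6%), and with the GC offset its log2 fold change was -0.05 (adjusted p = 0.650). Its promoter was the only window of the 8 with the MEF2 type match.

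**Figure D1:**
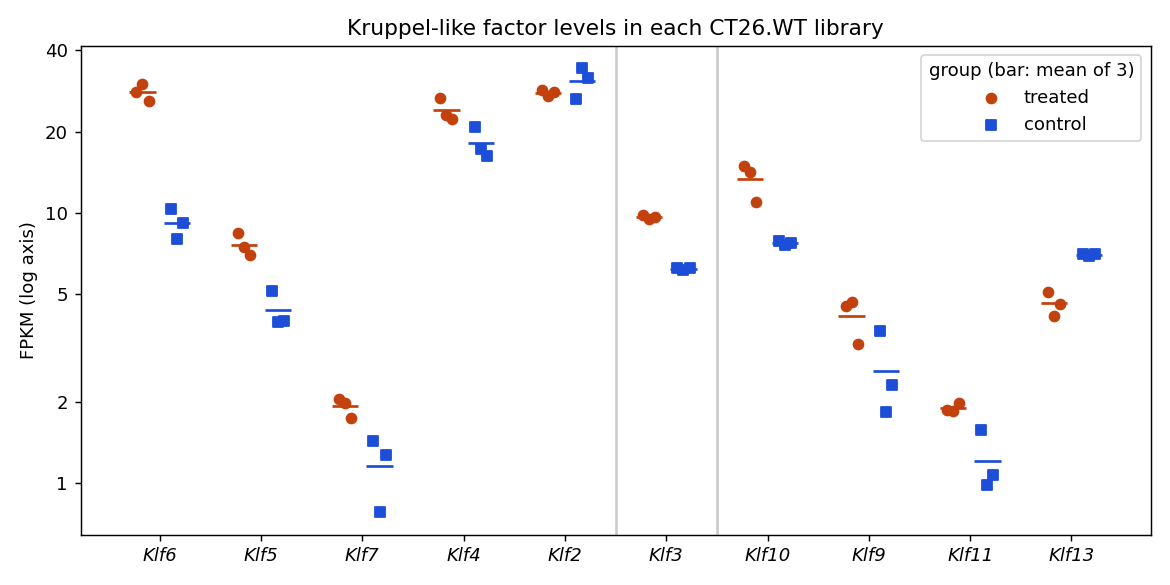
FPKM on a log axis for each library, with treated libraries (circles) left of control libraries (squares) for each factor and a bar at the mean of 3. Grey lines part the activator subgroup, Klf3 and the Sin3-binding subgroup. The treated libraries stand above all control libraries for Klf6, Klf5, Klf7, Klf4, Klf3, Klf10 and Klf11 and below them for Klf13, and the groups overlap for Klf2 and Klf9.

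Klf3 (chromosome 5), a repressor that recruits CtBP and is known from red cell and fat cell development, had the narrowest spread of the factors that rose. It had 9.83, 9.49 and 9.68 FPKM in treated libraries, against 6.27, 6.14 and 6.26 FPKM in control libraries. The coefficient of variation was 1.79% in treated and 1.14% in control libraries. Klf3 rose by a log2 fold change of 0.60 ± 0.07 (SE; edgeR adjusted p = 6.4e-05), and it ran from 0.57 to 0.60 with 1 library left out. Rows of 2 further transcripts overlap Klf3 in the deposited coordinates, Gm20033 on the opposite strand and C230096K16Rik on the same strand. They held 0.406 and 0.641 FPKM on average in treated libraries and 0.140 and 0.158 FPKM in control libraries. The sources used here do not say whether reads were assigned by strand.

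Of the 4 factors that recruit Sin3, 3 rose and 1 fell, against 23.0% and 23.5% of all tested rows. Klf10 (chromosome 15), first described as an early gene induced by TGF-beta, had 14.9, 14.2 and 11.005 FPKM in treated libraries, against 7.87, 7.61 and 7.72 FPKM in control libraries. Control libraries lay close together, while treated 3 was lower than the other two treated libraries and still above all controls. Klf10 rose by a log2 fold change of 0.75 ± 0.10 (SE; edgeR adjusted p = 0.000255). Klf11 (chromosome 12), its nearest relative and also induced by TGF-beta, had 1.87, 1.86 and 1.98 FPKM in treated libraries, against 1.58, 0.981 and 1.07 FPKM in control libraries. The groups did not overlap, with control 1 nearest to the treated libraries. The log2 fold change of Klf11 was 0.62 ± 0.19 (SE; edgeR adjusted p = 0.0225). Without treated 1, treated 2 or treated 3 it was 0.64, 0.63 and 0.57 (adjusted p = 0.0609, 0.0534 and 0.0757), and without control 2 or control 3 it was 0.49 and 0.52 (adjusted p = 0.0810 and 0.104). The call therefore held without control 1 only (0.82, adjusted p = 0.00516), and in limma over every row above 0 it was lost (0.40, adjusted p = 0.0590). Klf10 was 5.54 to 7.96 times as abundant as Klf11 by FPKM in treated libraries and 4.99 to 7.75 times in control libraries, ranges that overlap.

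Klf9 (chromosome 19), which is induced by glucocorticoid and thyroid hormone, had 4.54, 4.66 and 3.28 FPKM in treated libraries, against 3.65, 1.84 and 2.31 FPKM in control libraries. The groups overlapped, since treated 3 was below control 1, and the coefficient of variation in control libraries (36.2%) was the largest of the 10 members. Klf9 rose by a log2 fold change of 0.64 ± 0.22 (SE; edgeR adjusted p = 0.0381). Without treated 1 or treated 2 it was 0.58 and 0.54 (adjusted p = 0.127 and 0.139), and without control 2 or control 3 it was 0.45 and 0.54 (adjusted p = 0.123 and 0.148). The call was also lost with no filter on low counts (adjusted p = 0.0817).

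Klf13 (chromosome 7), known in lymphocytes as an activator of the chemokine gene Ccl5, was the only member that fell. It had 5.12, 4.15 and 4.60 FPKM in treated libraries, against 7.04, 6.95 and 7.07 FPKM in control libraries. Every treated library was below every control library. The log2 fold change was -0.64 ± 0.09 (SE; edgeR adjusted p = 0.000332), and it was -0.44 with the GC offset. A noncoding row on the opposite strand, Gm27252, overlaps Klf13 and held 0.0123 FPKM on average in treated and 0.0350 FPKM in control libraries. Klf9 over Klf13 within a library was 0.712 to 1.12 in treated and 0.264 to 0.519 in control libraries, ranges that do not overlap. The promoter of Klf13, printed above, held 3 GC boxes and 2 CCAAT matches.

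**Figure D2:**
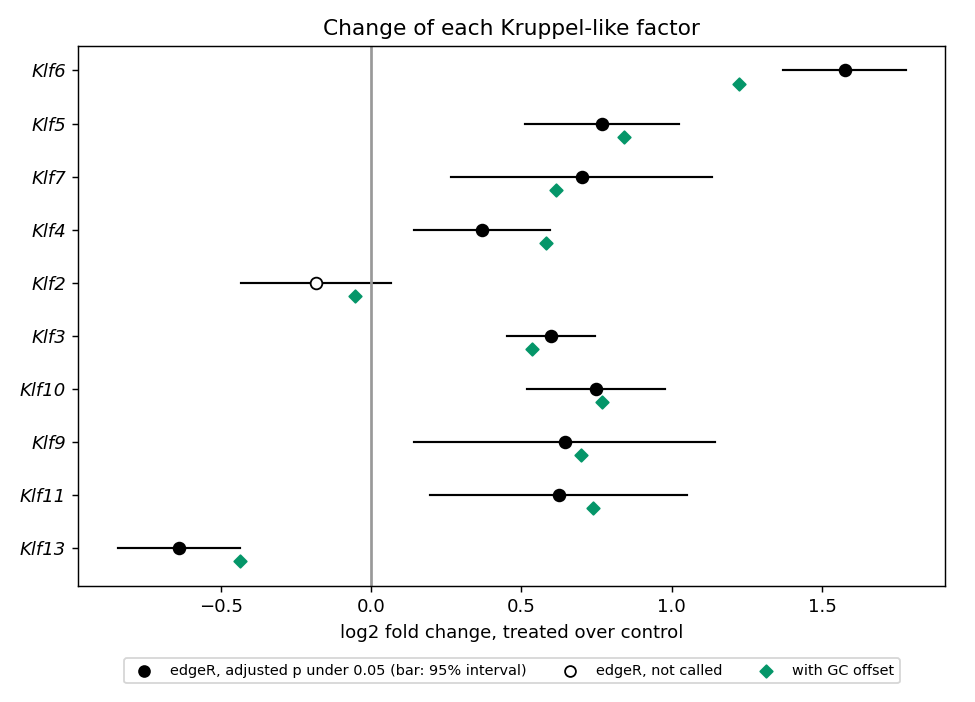
Log2 fold change of each factor, treated over control, in edgeR's quasi-likelihood fit (circles, with 95% intervals) and with an offset for GC content (diamonds). Klf6 stands furthest to the right at 1.57, or 1.22 with the offset, Klf13 is the only called factor left of 0, and the interval of Klf2 contains 0.

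In total, 7 factors had every treated library above every control library and 1 had every treated library below, as did 30.4% and 27.1% of all tested rows. The libraries of a group did not rank alike for all factors. By FPKM, control 1 was the highest control library for 8 of the 10 members and control 2 the lowest for 8, while treated 3 was the lowest treated library for 6. By log2 CPM with TMM scaling these counts were 6, 4 and 5, and control 2 was the highest control library for 4. The plot of changes with a library left out shows which calls turn on these libraries.

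**Figure D3:**
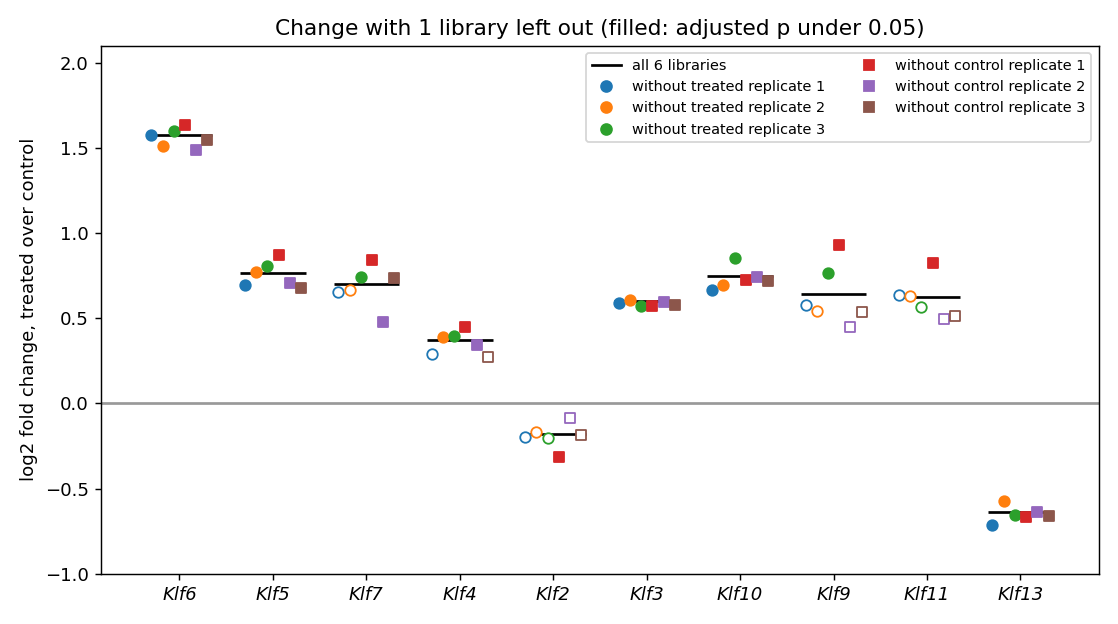
Log2 fold change of each factor, treated over control, with all 6 libraries (black line) and with each library left out in turn (symbols, filled where the adjusted p is under 0.05). Klf6, Klf5, Klf3, Klf10 and Klf13 are filled throughout, Klf11 is filled without control 1 only, and Klf2 is filled without control 1 only.

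The order of the factors by FPKM, a scale per transcript length, differed between groups at the top and in the middle. In treated cells Klf6 averaged 27.98 FPKM and Klf2 27.9 FPKM, and Klf6 was above Klf2 in 1 of 3 libraries, so the pair did not differ beyond their spread. They were followed by Klf4, Klf10, Klf3 and Klf5, which were ordered alike in all 3 libraries. Klf13 (4.62 FPKM) and Klf9 (4.16 FPKM) overlapped, as did Klf7 and Klf11 at the bottom (1.92 and 1.905 FPKM). In control cells Klf2 led with 30.8 FPKM, followed by Klf4 with 18.1, Klf6 with 9.17, Klf10 with 7.74, Klf13 with 7.02 and Klf3 with 6.23 FPKM, and these neighbours did not overlap. Klf13 thus stood above Klf3 and Klf5 in control cells and below both in treated cells, without overlap in either group. In control cells Klf5 and Klf9 came next without overlap, and Klf11 and Klf7, with 1.21 and 1.16 FPKM, overlapped.

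The 10 factors together summed to 123 ± 7.25 FPKM in treated and 88.4 ± 1.96 FPKM in control libraries (SD, n = 3 each). Klf6 made up 22.7% ± 1.36 of the sum in treated and 10.4% ± 1.18 in control libraries, and Klf2 22.7% ± 1.31 in treated and 34.9% ± 5.19 in control libraries. Without Klf6 the sum was 89.5 to 102 FPKM in treated and 77.6 to 80.2 FPKM in control libraries. Klf6 over Klf4, a ratio that does not depend on library scaling, was 1.05 to 1.30 in treated and 0.463 to 0.567 in control libraries. In a bulk sample, less RNA per cell and fewer cells with the RNA cannot be told apart.

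Of 16 further KLF and SP genes listed, 11 had a row and 8 were tested. Of these 8, 1 rose and 2 fell, against 23.0% and 23.5% of all tested rows. The median log2 fold change of the 8 was -0.37, which lies between the values of Klf16 (-0.35 ± 0.10) and Sp7 (-0.40 ± 1.02, SE). Sp7, Sp4, Klf1 and Klf15 stood near the floor, so this median is poorly fixed. Sp3, which shares GC boxes with Sp1 and often opposes it, had 5.33, 7.80 and 4.40 FPKM in treated libraries, against 1.99, 1.47 and 2.12 FPKM in control libraries. It rose by a log2 fold change of 1.61 ± 0.20 (SE; edgeR adjusted p = 0.00016), close to that of Klf6 and with a wider spread, and by 1.01 with the GC offset. Sp2 averaged 3.35 ± 0.229 FPKM in treated and 5.60 ± 0.647 FPKM in control libraries (SD, n = 3 each) and fell, with a log2 fold change of -0.78 ± 0.14 (SE). Klf16, a Sin3-binding relative of Klf13, fell like it, with 16.0 ± 1.30 FPKM in treated and 19.9 ± 1.22 FPKM in control libraries and a log2 fold change of -0.35 ± 0.10 (SE; edgeR adjusted p = 0.0171). The Klf16 call was lost without treated 1 (adjusted p = 0.0644) and without control 2 (adjusted p = 0.0537), and the value was -0.21 with the GC offset. Sp1, the most abundant tested relative that did not pass, had 3.51 ± 0.871 FPKM in treated and 3.04 ± 0.601 FPKM in control libraries (adjusted p = 0.469). Klf1, Klf15, Sp4 and Sp7, named after their values were seen, were at most 0.593 FPKM in any library and did not pass.

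The kinases and MEF2 factors that raise Klf2 and Klf4 in other cells moved both ways. Of 7 tested genes of the MEK5, ERK5 and MEF2 route, 3 rose and 2 fell, against 23.0% and 23.5% of all tested rows. The median log2 fold change of the 7 was -0.11. The kinase gene Map3k3 fell to 13.6 ± 1.30 FPKM in treated cells, against 19.3 ± 1.52 FPKM in control cells (SD, n = 3 each; log2 fold change -0.55 ± 0.10, or -0.33 with the GC offset). Mef2a, a transcription factor at MEF2 sites, rose at low levels, with 0.957 ± 0.189 FPKM in treated and 0.512 ± 0.138 FPKM in control libraries (0.86 ± 0.21, SE; edgeR adjusted p = 0.00674). Map3k2 rose as well, with 0.621 ± 0.179 FPKM in treated and 0.286 ± 0.114 FPKM in control libraries, a log2 fold change of 1.08 ± 0.30 and an edgeR adjusted p of 0.0151. With the GC offset the calls of Mef2a (0.46, adjusted p = 0.0550) and Map3k2 (0.45, adjusted p = 0.137) were lost, as they were in limma over every row above 0 (0.37 and 0.33, adjusted p = 0.0594 and 0.0808), and Map3k2 was also lost without treated 1 or treated 2 (adjusted p = 0.0625 and 0.0655). Mef2d, the most abundant MEF2 gene tested, stood at 22.3 ± 1.49 FPKM in treated and 23.5 ± 0.724 FPKM in control libraries (adjusted p = 0.295).

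TGF-beta induces Klf10 and Klf11. Of 10 tested genes of its ligands, receptors, SMADs and targets, 5 rose and 1 fell, against 23.0% and 23.5% of all tested rows. The median of the 10 was 0.24. Smad7, an inhibitory SMAD, had 7.02, 5.57 and 5.53 FPKM in treated libraries, against 2.63, 2.78 and 3.19 FPKM in control libraries (log2 fold change 1.03 ± 0.13, SE). Every treated library of Smad7 was above every control library. Skil, a repressor of SMAD signalling, rose at low levels, with 0.849 ± 0.150 FPKM in treated and 0.280 ± 0.0733 FPKM in control libraries (1.56 ± 0.22, SE), with 0.53 in limma on log2(FPKM + 1) over every row above 0. Smad3, which carries the signal to the nucleus, stood at 15.3 ± 0.756 FPKM in treated and 13.6 ± 0.495 FPKM in control libraries and missed the threshold (0.13, adjusted p = 0.137), though it passed with library totals only (0.21, adjusted p = 0.0273) and with the GC offset (0.34, adjusted p = 0.00270).

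Klf9 is a target of glucocorticoid and thyroid hormone receptors. Of 7 tested genes on that list 4 rose and 2 fell, against 23.0% and 23.5% of all tested rows. Nr3c1, the glucocorticoid receptor, rose to 3.51 ± 0.816 FPKM in treated cells, against 1.74 ± 0.473 FPKM in control cells (log2 fold change 0.98 ± 0.20, SE, or 0.59 with the GC offset). Genes that glucocorticoid induces moved both ways. Per1 and Sgk1, named after their values were seen, rose, with log2 fold changes of 0.30 and 0.35 (edgeR adjusted p = 0.0126 and 0.00434), while Fkbp5 and Tsc22d3 fell. Fkbp5 had 11.1 ± 0.451 FPKM in treated and 20.7 ± 0.897 FPKM in control libraries (-0.93 ± 0.07, SE), and Tsc22d3 13.5 ± 0.834 FPKM in treated and 23.4 ± 0.203 FPKM in control libraries (-0.84 ± 0.08, SE). Thra, a thyroid hormone receptor, stood at 20.1 ± 1.19 FPKM in treated and 21.1 ± 0.795 FPKM in control libraries (adjusted p = 0.322).

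Among 12 co-repressor and co-activator genes, 4 rose and 5 fell, against 23.0% and 23.5% of all tested rows. Ctbp1, a CtBP co-repressor of the kind that Klf3 recruits, had the largest fall on the list, with 29.6, 26.4 and 28.8 FPKM in treated libraries, against 59.4, 65.1 and 60.3 FPKM in control libraries (log2 fold change -1.16 ± 0.09, SE; edgeR adjusted p = 6.65e-06). Every treated library of Ctbp1 was at about the same level, well below all control libraries. The 4 that rose were its relative Ctbp2 (0.37, edgeR adjusted p = 0.00935), Sin3b (0.47), Sap30 (0.51) and Hdac2 (0.75). Sin3a (-0.37) and Hdac3 (-0.35) were among those that fell. These risers, Sin3a and Hdac3 were named after their values were seen. The deacetylase gene Hdac1 fell to 17.4 ± 1.06 FPKM in treated cells, against 27.3 ± 0.601 FPKM in control cells (-0.68 ± 0.07), and Fhl3, a LIM protein that binds Klf3, to 45.1 ± 2.94 FPKM in treated cells, against 63.3 ± 1.31 FPKM in control cells (-0.52 ± 0.08, or -0.34 with the GC offset). The acetyltransferase gene Ep300 stood at 1.14 ± 0.225 FPKM in treated and 1.37 ± 0.250 FPKM in control libraries (adjusted p = 0.165).

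Of 10 genes of protein turnover that act on these factors, 3 rose and 2 fell, against 23.0% and 23.5% of all tested rows. Vhl, whose ubiquitin ligase also acts on KLF4, rose to 14.02 ± 0.921 FPKM in treated cells, against 8.62 ± 0.976 FPKM in control cells (0.66 ± 0.11, SE). Bap1, a deubiquitinase that stabilises KLF5, fell to 16.0 ± 1.18 FPKM in treated cells, against 22.9 ± 0.305 FPKM in control cells (-0.55 ± 0.08, or -0.34 with the GC offset). The ligase gene Btrc rose, with 3.41 ± 0.0768 FPKM in treated and 2.37 ± 0.0683 FPKM in control libraries (0.49 ± 0.08), a call that was lost with the GC offset (-0.04, adjusted p = 0.857). Stub1, an abundant ligase of misfolded proteins, stood at 107 ± 7.86 FPKM in treated and 108 ± 2.47 FPKM in control libraries (adjusted p = 0.665).

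Genes reported elsewhere as targets of at least 1 family member moved both ways. Of 13 tested, 4 rose and 5 fell, against 23.0% and 23.5% of all tested rows. The median of the 13 was 0.24. Pdgfa, a growth factor gene under Klf5 in muscle cells, had 11.1, 11.1 and 11.6 FPKM in treated libraries, against 4.55, 3.85 and 4.22 FPKM in control libraries (log2 fold change 1.38 ± 0.10, SE). Birc5, the survivin gene, fell to 16.6 ± 0.302 FPKM in treated cells, against 40.4 ± 0.840 FPKM in control cells (-1.32 ± 0.07), and the mitotic cyclin gene Ccnb1 to 6.32 ± 1.05 FPKM in treated cells, against 17.5 ± 0.713 FPKM in control cells (-1.50 ± 0.11). Cdkn1a, the cell cycle inhibitor p21 that Klf4 and Klf6 are known to induce, had 181, 164 and 188 FPKM in treated libraries, against 172, 191 and 187 FPKM in control libraries. Its groups overlapped and it did not pass (-0.08 ± 0.09, SE; edgeR adjusted p = 0.507), while with the GC offset it was called higher (0.13, adjusted p = 0.0313). Over the 7 lists together 24 of 67 tested genes rose (35.8%) and 19 fell, against 23.0% rising and 23.5% falling of all tested rows.

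**Figure D4:**
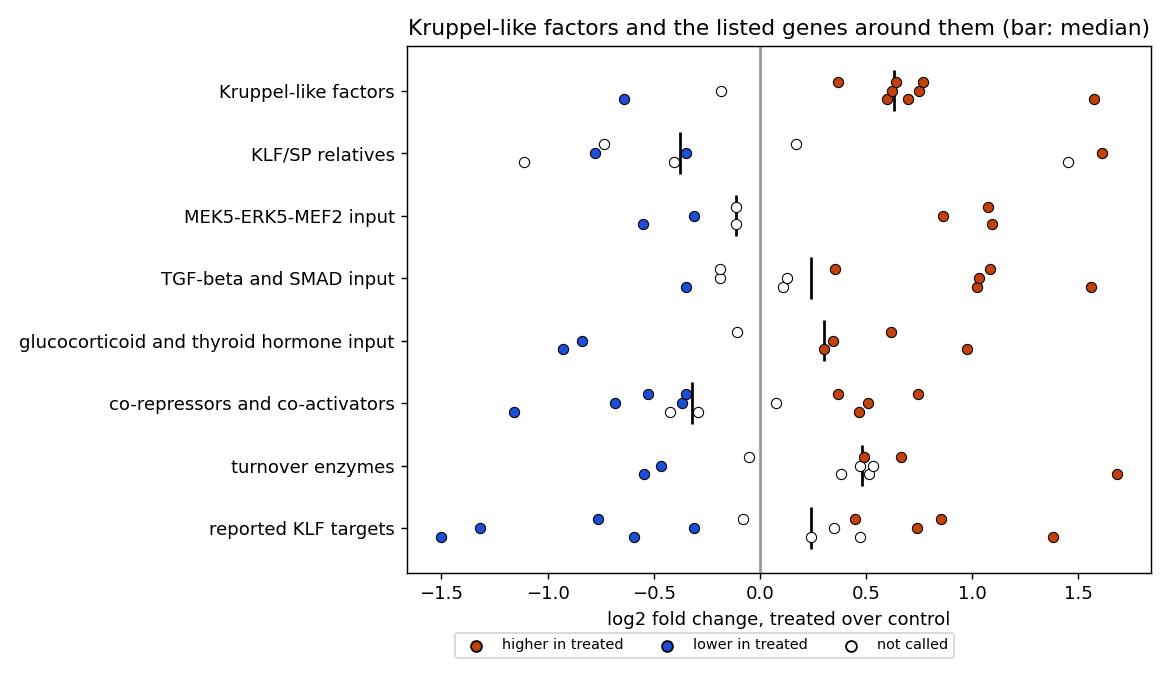
Log2 fold change, treated over control, of each tested gene on the lists, with a bar at each list's median and colour for calls at an edgeR adjusted p under 0.05. Of the Kruppel-like factors 8 of 10 lie right of 0 as called, with a median of 0.63, while the medians of the other lists lie between -0.37 and 0.48. The lowest median, that of the KLF and SP genes, takes in genes near the floor.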

How the data were processed

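Per the labels' protocols, poly(A) RNA of 6 libraries was made into strand-marked paired-end libraries and sequenced on an Illumina instrument. Per the submitters' processing notes, the tools were HISAT2 2.2.1, StringTie 2.1.6, cutadapt 1.9, edgeR and DESeq2, with no role stated. The sources used here name no genome build, annotation release or use of strand. Per the file headers, each gene has, per library, an FPKM value and a count that the authors deposited. The deposited counts are whole numbers and were taken as estimated counts. The value 4 stood in 4054 cells, while its neighbouring values stood in 2540 on average. The weight of about 4 counts per fragment was inferred from this.

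Estimated counts were tested with the quasi-likelihood fit of edgeR 4.0.16 in R 4.3.3, with the default low count filter, TMM scaling and Benjamini-Hochberg adjustment over all 16212 tested rows of 25407. It was tested on simulated data in which few rows changed, a setting unlike these data, so that test does not bear on the calls here. Fold changes are log2, treated over control, the SE is the fold change over the root of the F statistic, and 95% intervals use its t distribution. GC content came from GENCODE M21 transcripts, matched by gene identifier for 97.2% of tested rows, and its offset was a loess fit per library (span 0.4). DESeq2 1.42.0 and limma 3.58.1 were alternatives. The members, lists and tests were chosen with earlier results of these data known. Lists were not tested as sets. All 10 members are named. In each list, up to 3 called genes with the smallest p and the most abundant tested gene not called are named, except that 1 gene is not reported here. Genes with no row, Mef2c among them, were not analysed here.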

Additional observations from a re-analysis of the deposited data

How the results depend on the processing

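Of 16 alternatives for each factor, all kept the direction and the call of Klf3 (0.54 to 0.68), Klf5 (0.68 to 0.87), Klf6 (1.22 to 1.65), Klf10 (0.67 to 0.85) and Klf13 (-0.71 to -0.44). No alternative reversed any of the 10. With limma on log2(FPKM + 1) over every row above 0, 4 factors rose, since Klf4 (0.39), Klf7 (0.45), Klf9 (0.54) and Klf11 (0.40) were not called. Klf9 was not called without a low count filter either (0.66). With 1 library left out, 4 to 8 factors rose and 1 to 2 fell, with Klf2 from -0.3125 to -0.0876, Klf4 from 0.27 to 0.45, Klf7 from 0.48 to 0.84, Klf9 from 0.45 to 0.93 and Klf11 from 0.49 to 0.82. The median over the 10 then ran from 0.49 to 0.78, and was 0.71 with library totals only and 0.49 in limma on log2(FPKM + 1), both at a mean FPKM of at least 1 and over every row above 0. The cause was not tested. The number of all rows changed was 7548 and ran from 6073 to 7756, and that of the 7 lists was 43 and ran from 34 to 44. Among the 28 list genes that the naming rule picks, 429 of 442 comparisons kept the call, and the direction where a call was made. A sign change of a gene called in neither fit counts among those kept. Stub1, for example, was at -0.05 and with library totals only at 0.02. With the GC offset Btrc turned to -0.0351 and Cdkn1a to 0.13. Pairs of a factor and a planned motif found in its promoter numbered 21 in the whole windows and 16 in the 150 bases before the start, where ACGTG was in 2 windows in place of 4. Replicate numbers are shared between the groups, but libraries of the same number did not deviate together (correlations of 0.0399, -0.103 and 0.00645). With a replicate block 6275 rows changed, and Klf16 was no longer called (adjusted p = 0.0574). The planned fit with both GC offset and block was not run, since these correlations gave no sign of pairs. With 3 libraries per group and low-count rows included, they cannot exclude that the numbers pair the libraries. The lowest count of a member in a library was 350 estimated counts, or 87.5 after division by 4, for Klf11, and the largest SE was that of Klf9 (0.22).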

Other observations

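Profiles like that of Klf6 over the 6 libraries were sought by the root mean square difference of centred log2 CPM. Rows with predicted, clone or Rik names and pseudogenes were left out. The nearest of the rest were Sclt1 (0.0804), a gene of centriole appendages, Insig2 (0.0840), a sterol sensor of the endoplasmic reticulum, and Rpl37 (0.0882). Rpl37 is a ribosomal protein gene whose reads may be shared with pseudogene copies. Insig2 had 14.1, 16.7 and 12.1 FPKM in treated libraries, against 5.52, 3.93 and 4.48 FPKM in control libraries. Rpl37 had 261, 255 and 258 FPKM in treated libraries, against 89.5, 79.4 and 83.1 FPKM in control libraries, and Sclt1 was at most 0.362 FPKM. Groups of 3 libraries place many rows close to any gene that differs between them.

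The authors' annotation places 503 other rows in the C2H2 zinc finger family, a grouping used after the table's columns were seen. Of the 449 tested, 161 rose (35.9%) and 42 fell, against 23.0% and 23.5% of all tested rows. The 449 had a median log2 fold change of 0.50 and a median transcript GC content of 43.6%. With the GC offset 133 of 448 rose (29.7%) and 47 fell, with a median of 0.35, while 25.7% of all rows rose and 23.5% fell. Among the 161 with a mean FPKM of at least 1, a floor that all 10 Kruppel-like factors pass, 51 rose (31.7%) and 33 fell, with a median of 0.11. With the GC offset 59 rose (36.6%) and 31 fell, with a median of 0.15. Of all 10340 tested rows past that floor, 2656 rose (25.7%) and 3454 fell. With the GC offset, 3150 of 10194 such rows rose (30.9%) and 3266 fell.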
